A study of Solanum lycopersicum with 36 samples.

Results

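Leaves of grafted tomato seedlings (GSs) that had stood in salt for 96 h were compared with leaves of GSs taken before salt was added (0 h). The comparison was fixed by the sample labels, with 3 libraries at 96 h (replicates 13, 14 and 15) and 3 at 0 h (replicates 1, 2 and 3), which are 6 of the 36 libraries of the series. The GSs carried a scion of the salt-sensitive variety Zhongza 9 on roots of the salt-tolerant rootstock variety QZ-006, joined by split grafting, and grew in aerated Hoagland's solution. At 96 h the plants had been in the same solution with 175 mM NaCl, and the 0 h plants had received no salt. The RNA is that of scion leaves, so the roots that met the salt were not measured. The series also holds GSs at 6, 12, 24 and 48 h and nongrafted seedlings (NGSs) at all 6 times, of which GSs at 48 h and NGSs at 0 and 96 h are used below. No library used here comes from unstressed plants after 0 h, so in these data salt and the 4 days that had passed cannot be told apart.

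Salt in the root medium lowers the water potential around the roots and brings sodium and chloride into the shoot. Leaves are known to answer the first of these with abscisic acid (ABA), a hormone that closes stomata and switches on genes for dehydrins, late embryogenesis abundant (LEA) proteins and small protective sugars. The later, ionic phase is handled by transporters that keep sodium out of the cytosol, and growth hormones such as auxin and gibberellin are commonly turned down meanwhile.

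Values were FPKM (a read level per length of gene and per size of library). Between 19894799 and 25678549 reads lay on genes in the 6 libraries. The squared correlation (R2) of log2 values between libraries of 1 group was 0.909 to 0.942 at 0 h and 0.922 to 0.964 at 96 h, against 0.721 to 0.818 for pairs of a 0 h and a 96 h library. All 24 nuclear genes of chlorophyll-binding proteins, photosystem subunits and the small subunit of Rubisco that mark leaf mesophyll had a mean above 1 FPKM at both times, and their summed level was 51935 to 117099 FPKM at 0 h and 40047 to 84661 FPKM at 96 h. The tested marker genes of fruit (2 of 5), glandular trichome (3 of 3), flower (4 of 9) and phloem (2 of 2) did not pass the test in either direction. Of 3 genes matched as root markers, XTH1 was called higher. It was matched by its synonym ext and is a gene of cell wall loosening that leaves also express. Replicate 1 at 0 h stood several-fold above the other 0 h libraries for genes of steroidal alkaloids and some others, and results that rest on it are given without it as well.

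A gene was called a differentially expressed gene (DEG) when its absolute log2 fold change was at least 1 and its false discovery rate (the adjusted p below) was under 0.05 in limma on log2(FPKM + 1). Adding 1 shrinks the fold change of a gene whose FPKM is low. Of 20090 genes tested, 2727 were DEGs (13.6%), with 1843 upregulated (9.17%) and 884 downregulated (4.40%). The rises were also the larger changes. A log2 fold change of at least 2 was reached by 751 of the upregulated and 148 of the downregulated genes, and one of at least 3 by 296 and 29. The median over all genes tested was -0.04. The values of the 3 libraries at 96 h did not overlap with those of the 3 at 0 h in 2607 of the 2727 DEGs, against 40.4% of all genes tested (20.4% higher). The DEGs were called on these same libraries, so this separation largely follows from the call and is no separate evidence for it. Since only 1819 of the tested genes have a name in the reference used here or in the study, the gene groups below describe a small part of the response.

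Genes of osmotic protection held the largest rises among genes with a name. Of 12 tested genes of dehydrins, LEA proteins and related osmotic stress proteins, 8 were upregulated, none was downregulated, and the median log2 fold change was 3.75. TAS14, a dehydrin first known from salt-treated tomato, was at 0.998, 2.43 and 4.39 FPKM at 0 h and at 1371, 2289 and 680 FPKM at 96 h (log2 fold change 8.60 ± 1.11 SE, adjusted p = 3.88e-06). LE25, which encodes a LEA protein, went from 0.572, 8.54 and 1.52 to 725, 1011 and 192 FPKM (7.28 ± 1.31, adjusted p = 0.000191). In both genes every 96 h library lay above every 0 h library, and replicate 15 was the lowest of the 96 h libraries. Lower levels were reached by ER5, a LEA-like gene, at 1.4, 0.317 and 1.90 against 74.1, 115 and 37.2 FPKM (5.05 ± 1.18, adjusted p = 0.00217). Its call was lost with voom on the reads recovered from the FPKM values (6.12, adjusted p = 0.0797). TSW12, a lipid transfer protein known from salt-treated tomato, rose by 4.12, DHN by 3.78 and LEA14 by 3.72 on the log2 scale. The members that did not pass the test were the ASR genes (ABA, stress and ripening), with log2 fold changes of -0.14 for Asr2, 0.44 for ASR3, 0.70 for ASR1 and 1.11 for Asr4.

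Galactinol synthases make the donor of galactose for raffinose, a protective sugar, and both tested genes rose. GolS2 stood at 2.10, 2.38 and 2.54 FPKM at 0 h and at 488, 612 and 347 FPKM at 96 h (7.14 ± 0.60, adjusted p = 1.02e-08). GolS-1 was at 0.0403, 0 and 0 FPKM at 0 h and at 17.4, 11.6 and 4.87 FPKM at 96 h (3.45 ± 0.35, adjusted p = 1.56e-07). Sugar and starch genes as a whole counted 7 upregulated and 2 downregulated members of 34 tested, with a median of 0.20. The hexose transporter HT2 rose from 2.11, 6.02 and 3.02 to 79.0, 57.0 and 46.2 FPKM (3.76 ± 0.75, adjusted p = 0.000552). The sucrose synthases sus3 and SUS4, which split sucrose, rose by 2.69 and 2.23, and the starch-degrading beta-amylase gene BAM1 by 2.44. The invertase gene LIN8 (-1.22) and the fructokinase gene FRK2 (-1.09) were downregulated, and 1 member of the list was without replicate 3 at 0 h or replicate 15 at 96 h.

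ABA genes rose without exception among those called. Of 14 tested, 8 were upregulated and none was downregulated, with a median of 1.32, and the other 6 also had a positive log2 fold change. NCED1, the 9-cis-epoxycarotenoid dioxygenase of the rate-limiting step of ABA synthesis, was at 6.88, 4.24 and 6.51 FPKM at 0 h and at 143, 54.1 and 45.8 FPKM at 96 h (3.41 ± 0.63, adjusted p = 0.000268). CYP707A2, an ABA 8'-hydroxylase that breaks the hormone down, rose beside it from 1.48, 0.634 and 1.60 to 23.2, 35.2 and 46.9 FPKM (3.99 ± 0.91, adjusted p = 0.00181). The highest library was replicate 13 for the synthesis gene and replicate 15 for the breakdown gene. Of the protein phosphatases 2C that hold back ABA signalling, PP2C-2 went from 16.5, 68.7 and 49.2 to 363, 241 and 121 FPKM (2.49 ± 0.59, adjusted p = 0.00254), and PP2C-1 and ABI2 rose by 1.65 and 1.94. ZEP, the zeaxanthin epoxidase upstream of ABA, rose by 1.62, and AREB1, a bZIP factor of ABA signalling, by 1.02.

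Transporters of sodium, potassium and protons changed little beside this. Of 19 tested genes of that group, including the calcineurin B-like (CBL) sensors and CBL-interacting kinases (CIPKs) that control such transporters, 3 were upregulated and none downregulated, with a median of 0.15. CIPK11 had by far the largest change, from 2.01, 2.42 and 5.53 to 82.8, 91.3 and 64.4 FPKM (4.29 ± 0.72, adjusted p = 9.63e-05). The vacuolar sodium/proton exchanger gene nhx3 rose from 4.97, 6.58 and 5.24 to 24.3, 24.3 and 9.21 FPKM (1.51 ± 0.36, adjusted p = 0.0028). CIPK6 was at 207, 217 and 317 FPKM at 0 h and at 432, 496 and 581 FPKM at 96 h (1.04 ± 0.30, adjusted p = 0.0117), close enough to the fold threshold that it was not called without replicate 1 at 0 h (0.93), replicate 2 at 0 h (0.96) or replicate 15 at 96 h (0.93). SOS1, the plasma membrane exchanger that exports sodium, had a log2 fold change of -0.15, its kinase SOS2 one of -0.20, and HKT1;2, which retrieves sodium from the xylem, one of -0.54, and none of the 3 passed the test.

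**Figure D1:**
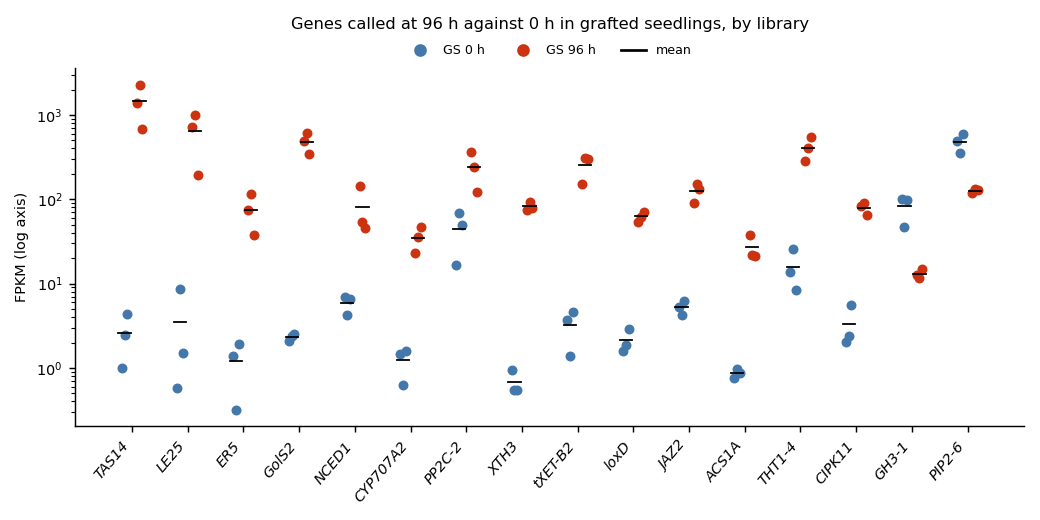
FPKM (log axis) of 16 genes in each library of GSs at 0 h (blue) and at 96 h of salt (red), with the mean of each group as a black line. In every gene the 3 libraries of each time do not overlap with those of the other, and GH3-1 and PIP2-6 are the ones that fell.

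Among genes of proline, GABA and amino acid metabolism, 9 of 32 tested were upregulated and 1 was downregulated (GABA-TP2, described with the glycoalkaloid genes), with a median of 0.30. The downregulated count was 4 without replicate 15 at 96 h and 0 without replicate 1 at 0 h. As first matched, before 2 members were removed as false matches with values known, 3 of 34 tested were downregulated. The 2 aromatic amino acid decarboxylase genes AADC1A and AADC1B, which make amines such as tyramine from amino acids, rose the most, AADC1A from 1.02, 1.81 and 0.874 to 24.7, 50.4 and 82.0 FPKM (4.44 ± 0.69, adjusted p = 4.11e-05) and AADC1B by 3.86. LOC544313, a glutamate decarboxylase gene that makes GABA (gamma-aminobutyric acid), went from 4.52, 5.33 and 6.73 to 45.6, 42.4 and 35.9 FPKM (2.70 ± 0.39, adjusted p = 1.35e-05). Arginine decarboxylase genes (ADC and adc1), which lead to polyamines, rose by 1.36 and 1.42. SAM2, an S-adenosylmethionine synthetase that feeds ethylene and polyamines, was at 187, 107 and 109 FPKM at 0 h and at 252, 472 and 635 FPKM at 96 h (1.69 ± 0.42, adjusted p = 0.00338). Outside the list, the NADH-glutamate synthase gene LOC101254281 rose from 22.3, 24.8 and 17.5 to 64.2, 69.7 and 41.9 FPKM (1.39 ± 0.38, adjusted p = 0.00678). LOC101265059, the ArgJ gene of arginine synthesis, was at 32.9, 15.5 and 18.1 FPKM at 0 h and at 6.20, 7.27 and 16.6 FPKM at 96 h (-1.12 ± 0.35, adjusted p = 0.017). Its groups overlapped, and the call was lost without replicate 1 at 0 h (-0.80, adjusted p = 0.125), replicate 13 (-0.87, 0.112) or replicate 14 (-0.97, 0.0806) at 96 h. The proline synthesis gene PRO2 was at a log2 fold change of 0.02, and PRO1 at 1.16 without passing the test.

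Phenylpropanoid genes counted 6 upregulated and no downregulated members of 20 tested (median 0.76). The 3 with the largest changes were tyramine hydroxycinnamoyltransferases, which join tyramine to phenolic acids. THT1-4 rose from 13.6, 25.6 and 8.31 to 285, 403 and 542 FPKM (4.69 ± 0.87, adjusted p = 0.00025), THT1-3 by 4.25 and THT7-8 by 2.25. PAL5, a phenylalanine ammonia-lyase of the entry step, rose by 2.03, whereas the chalcone synthase genes CHS1 (0.32) and CHS2 (-0.31) of the flavonoid branch did not pass the test. Without replicate 1 at 0 h the list counted 9 upregulated members.

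Genes of jasmonate and wound response moved in both directions, with 6 upregulated and 2 downregulated of 24 tested and a median of 0.11. The synthesis genes loxD (a 13-lipoxygenase), AOS (allene oxide synthase) and AOC (allene oxide cyclase) rose by 4.36, 2.61 and 1.75. For loxD the levels were 1.57, 1.87 and 2.93 FPKM at 0 h and 54.2, 62.1 and 71.3 FPKM at 96 h (SE 0.74, adjusted p = 0.000108). Of the JAZ repressors of jasmonate signalling, JAZ2 went from 5.23, 4.29 and 6.19 to 89.7, 153 and 133 FPKM (4.32 ± 0.76, adjusted p = 0.000151). LOC101247936, a TIFY 10b-like gene of the same family, rose from 49.9, 29.1 and 29.3 to 139, 273 and 266 FPKM (2.59 ± 0.45, adjusted p = 0.000124), and MYC2, the factor that JAZ proteins bind, rose by 2.03. OPR1 (-1.57) and JAR1 (-1.43), which conjugates jasmonate to isoleucine, were downregulated. OPR3 (0.59, adjusted p = 0.0158, below the fold threshold) and opr2 (-0.12) were not called.

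WRKY factors, plant transcription factors of stress and defense, counted 9 upregulated and no downregulated members of 17 tested, with a median of 1.81. WRKY31 (LOC101255501) was at 17.5, 43.6 and 18.5 FPKM at 0 h and at 227, 216 and 283 FPKM at 96 h (3.26 ± 0.59, adjusted p = 0.00022). WRKY40 rose from 32.5, 53.1 and 45.0 to 178, 249 and 361 FPKM (2.54 ± 0.64, adjusted p = 0.00426). WRKY45 had low levels, 0.419, 1.82 and 0.612 against 11.9, 10.2 and 35.2 FPKM (3.22 ± 1.03, adjusted p = 0.0203), and lost its call without replicate 1 at 0 h (adjusted p = 0.0658), replicate 3 at 0 h (0.0588) or replicate 15 at 96 h (0.0806). The list counted 5 upregulated members without replicate 1 or replicate 3 at 0 h. Outside the list, the WRKY genes LOC101247012 (18.1, 17.6 and 17.3 against 82.5, 88.3 and 120 FPKM, 2.37 ± 0.56, adjusted p = 0.00229) and LOC543855 (1.78, 1.54 and 1.2 against 13.6, 32.8 and 26.0 FPKM, 3.25 ± 0.82, adjusted p = 0.0041) were also upregulated. The bZIP gene LOC101250636 (PosF21) had the closest replicates of these factors, 17.0, 16.2 and 18.3 against 115, 116 and 109 FPKM (2.66 ± 0.48, adjusted p = 0.0002).

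Kinase cascade genes included 4 upregulated (13.8%) and 1 downregulated member (3.45%) of 29 tested, with a median of 0.22. Among all genes tested the shares were 9.17% and 4.40%. As first matched, before 5 members were removed as false matches with values known, the list had 7 upregulated of 34 tested. The mitogen-activated protein kinase gene MPK3 rose from 22.8, 50.2 and 22.9 to 290, 338 and 458 FPKM (3.53 ± 0.83, adjusted p = 0.0022), and MKK2, a kinase that acts above such enzymes, from 16.0, 29.6 and 18.6 to 39.0, 49.6 and 55.3 FPKM (1.16 ± 0.23, adjusted p = 0.000575). Without replicate 1 at 0 h, 2 members were upregulated, none was downregulated and MKK2 stood at 0.98, and none was downregulated without replicate 14 at 96 h. Pathogenesis-related genes did not move as a group. Of 28 tested, 2 were upregulated (7.14%) and 1 was downregulated (3.57%), and the median was -0.15. The chitinase gene CHI17 was at 23.1, 57.1 and 10.7 FPKM at 0 h and at 127, 537 and 84.6 FPKM at 96 h (2.83 ± 0.94, adjusted p = 0.0252), and PTI5, an ethylene response factor, went from 4.60, 18.1 and 8.49 to 31.8, 39.4 and 34.6 FPKM (1.85 ± 0.65, adjusted p = 0.0328). Neither was called without replicate 1 at 0 h, replicate 3 at 0 h or replicate 14 at 96 h, and PTI5 was also not called without replicate 13 or replicate 15. PR1b1 (-2.11) and P4 (-1.56), which encode PR1-type proteins, did not pass the test.

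The ethylene list was the longest. Of 66 tested genes, 23 were upregulated and 1 was downregulated, and the median was 0.70. No member was downregulated without replicate 3 at 0 h, replicate 14 or replicate 15 at 96 h, and 2 were without replicate 2 at 0 h. ACS1A, an ACC synthase of the committed step of ethylene synthesis, was at 0.767, 0.975 and 0.870 FPKM at 0 h and at 38.0, 21.8 and 21.4 FPKM at 96 h (3.86 ± 0.65, adjusted p = 9.93e-05). The ACC synthase genes ACS1B, ACS6 and ACS3 rose by 1.59, 1.38 and 1.13 and the ACC oxidase gene ACO4 by 1.41. ACO1 was at 68.5, 975 and 138 FPKM at 0 h and at 1018, 745 and 1041 FPKM at 96 h (2.13 ± 0.87, adjusted p = 0.0663), with replicate 2 at 0 h inside the range of the 96 h libraries. Without that library its log2 fold change was 3.24 (adjusted p = 0.00711). Most of the called members were transcription factors of the AP2/ERF family, whose members act in cold and drought as well as ethylene responses. CBF1, a cold-response factor of that family, rose from 9.18, 1.09 and 10.0 to 55.0, 98.4 and 158 FPKM (3.96 ± 1.01, adjusted p = 0.00423), ERF5 by 3.52, ERF36 by 2.82 and DREB1 by 1.85. Of the ethylene receptors ETR6 rose by 2.31, and ETR1 (0.02) and ETR2 (-0.08) did not pass the test.

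Auxin genes stood out among the lists for their falls. Of 60 tested, 14 were downregulated, 5 were upregulated and the median was -0.31. GH3-1, of the family that conjugates auxin to amino acids, was at 102, 46.9 and 98.9 FPKM at 0 h and at 12.7, 11.6 and 14.9 FPKM at 96 h (-2.49 ± 0.31, adjusted p = 2.24e-06). GH3-18 went from 35, 6.60 and 19.1 to 0.287, 0.522 and 3.25 FPKM (-3.12 ± 0.53, adjusted p = 9.57e-05). Both kept their groups apart. The auxin efflux carriers PIN4 and PIN3 fell by 1.51 and 1.23, the influx carrier LAX1 by 1.24, and the flavin monooxygenase genes FZY2 and FZY4 of auxin synthesis by 1.62 and 1.37. In the other direction, the Aux/IAA repressor IAA15 rose from 6.23, 10.3 and 5.10 to 77.3, 87.8 and 60.3 FPKM (3.25 ± 0.64, adjusted p = 0.000495) while IAA2, IAA27 and IAA4 of the same family fell. GH3.2 (LOC101246970) also rose, from 0.27, 0.280 and 0.12 to 2.35, 3.93 and 5.57 FPKM (1.97 ± 0.31, adjusted p = 4.91e-05). Without replicate 1 at 0 h, 10 members were downregulated.

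Gibberellin and cytokinin genes were 3 up and 1 down of 22 tested, with 3 down without replicate 2 at 0 h or replicate 15 at 96 h. The 3 up and 1 down were 13.6% and 4.55% of the list, against 9.17% and 4.40% of all genes tested, and its median was -0.14. The 3 gibberellin genes given next were picked because they were called. GA2ox3, which inactivates gibberellin, rose from 0.158, 0.426 and 0.252 to 19.9, 18.5 and 10.1 FPKM (3.70 ± 0.59, adjusted p = 5.02e-05). GA20OX1, which makes it, fell from 45.2, 6.78 and 23.5 to 1.62, 1.99 and 3.96 FPKM (-2.61 ± 0.70, adjusted p = 0.00666, and 0.0571 without replicate 1 at 0 h). The receptor gene GID1b-1 rose from 10.9, 12.7 and 19.9 to 71.0, 86.6 and 65.5 FPKM (2.31 ± 0.30, adjusted p = 4.95e-06). The DELLA gene LOC101265384 (0.14 ± 0.31) and the phosphotransfer gene LOC101253938 of cytokinin signalling (0.84 ± 0.46) did not pass the test.

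Brassinosteroid and cell wall genes counted 6 upregulated (12.8%) and 4 downregulated members (8.51%) of 47 tested, with a median of -0.09. Among all genes tested the shares were 9.17% and 4.40%. The upregulated members of the list were mostly xyloglucan endotransglucosylase/hydrolases (XTHs), enzymes that cut and rejoin xyloglucan in the wall. A group of 16 tested XTH genes, put together after the values were seen, had 9 upregulated and no downregulated members and a median of 2.51. The 3 genes that the study names XTH protein 23 joined it by that name and not by a symbol. The study had picked these 3 and XTH3 among DEGs of this same series, so they add no separate evidence. The 9 and the median of 2.51 count them in and would be lower without them. The 7 members not called were XTH5, XTH6, XTH7, XET2, XTH16, XET4 and SLXTH15. Their log2 fold changes lay between -0.69 (XTH7) and 0.18 (XTH5). XTH3 was at 0.934, 0.542 and 0.546 FPKM at 0 h and at 74.1, 93.4 and 79.3 FPKM at 96 h (5.64 ± 0.89, adjusted p = 4.44e-05). The 3 genes LOC101258345, LOC101258926 and LOC101258632, which the study names XTH protein 23, rose by 5.85 ± 0.65, 5.85 ± 0.69 and 5.53 ± 0.74, from at most 1.77 FPKM in any 0 h library to at least 58.8 FPKM in any 96 h library. Near-identical copies such as these, tXET-B1 (4.60) and tXET-B2 (5.94), and AADC1A and AADC1B may share reads, and how the authors' counting divided them is not given in the sources used here. Of the wall genes that fell, the beta-galactosidase TBG3 was at -2.54, the pectate lyase PL at -1.68 and the expansin EXP2 at -1.68. AGP-1, an arabinogalactan protein gene, rose from 13.4, 10.8 and 9.51 to 326, 361 and 196 FPKM (4.56 ± 0.79, adjusted p = 0.000125).

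Heat shock proteins and factors had 9 upregulated and no downregulated members of 18 tested, with a median of 1.44. Hsc70.1, a chaperone of the HSP70 family, rose from 3.91, 4.78 and 1.94 to 93.8, 67.4 and 68.3 FPKM (4.13 ± 0.89, adjusted p = 0.00112), and the small heat shock gene Hsp20.0 from 2.64, 4.17 and 1.63 to 14, 21.4 and 21.2 FPKM (2.41 ± 0.41, adjusted p = 9.89e-05). HSP16-9 had 0 reads in every 0 h library and 30, 57 and 44 reads at 96 h, at least 15.7-fold higher against a floor of 3 reads per library. The HSP90 chaperone genes HSP90 (0.92) and Hsp90-1 (0.74) did not pass the test.

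Antioxidant enzymes counted 4 upregulated (14.8%, against 9.17% of all genes tested) and no downregulated members of 27 tested, with a median of -0.13. Those that rose are sources of reactive oxygen, a peroxidase and a respiratory bypass rather than the ascorbate peroxidases, catalases and glutathione reductases of the list. Wfi1, an NADPH oxidase, went from 9.85, 28.6 and 11.6 to 117, 150 and 154 FPKM (3.14 ± 0.69, adjusted p = 0.00138), and RBOH1 of the same family rose by 1.75. The peroxidase gene cevi16 rose by 2.27. The alternative oxidase AOX1a, which lets electrons leave the mitochondrial chain early, rose from 63.5, 77.8 and 62.4 to 242, 378 and 380 FPKM (2.25 ± 0.47, adjusted p = 0.000737). APX1 (-0.25), APX2 (-0.13), CAT2 (-0.19) and GR1 (0.66) were not called.

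Antenna proteins, photosystems and carbon fixation gave 1 upregulated and no downregulated member of 41 tested, with 33 of the 41 below 0 and a median of -0.48. Without replicate 2 at 0 h or replicate 15 at 96 h, 4 members were downregulated. The called gene was ELIP, an early light-induced protein that protects chlorophyll, at 61.0, 60.1 and 43.5 FPKM at 0 h and 128, 267 and 182 FPKM at 96 h (1.74 ± 0.47, adjusted p = 0.00649). The antenna genes varied among replicates as much as between the times. LOC101253380 (chlorophyll a-b binding protein 6A) was at 342, 71.3 and 147 FPKM at 0 h and at 62.7, 104 and 294 FPKM at 96 h (-0.30 ± 0.70), and the sign was positive without replicate 1 at 0 h (0.28). CAB6A was at 540, 178 and 341 against 196, 271 and 526 FPKM (-0.07 ± 0.50). LOC101267774 (chlorophyll a/b binding protein 3A) was at 1103, 532 and 946 against 1371, 1315 and 1777 FPKM (0.84 ± 0.39, adjusted p = 0.106), with groups that did not overlap.

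Genes encoded by the plastid genome itself were lower at 96 h. Of 117 tested, 33 were downregulated, none was upregulated and 113 were below 0, with a median of -0.87. This group was put together after the values were seen. Plastid transcripts made up 0.102, 0.0779 and 0.0954% of the reads at 0 h and 0.0252, 0.0344 and 0.0515% at 96 h, and the groups did not overlap. The part that library preparation had in these small shares was not tested. Replicate 13 had the lowest share and replicate 15 the highest of the 96 h libraries. Without replicate 13, 17 plastid genes were downregulated, and without replicate 15, 47 were. The mitochondrial tRNA gene trnS(GCT) had 20, 16 and 15 reads at 0 h and 0 reads in every 96 h library, at least 5.38-fold lower against a floor of 3 reads per library.

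Aquaporins, the water channels of plant membranes, changed in single genes. Of 16 tested, PIP2-6 fell from 492, 355 and 587 to 120, 131 and 130 FPKM (-1.88 ± 0.24, adjusted p = 4.34e-06), PIP1-3 from 513, 280 and 306 to 134, 145 and 191 FPKM (-1.18 ± 0.33, adjusted p = 0.00849) and PIP1-7 rose from 421, 167 and 172 to 604, 634 and 686 FPKM (1.48 ± 0.34, adjusted p = 0.00202). All 3 kept their groups apart, though PIP1-3 stood at -0.91 without replicate 1 at 0 h. Cell cycle and histone genes had 2 downregulated and no upregulated members of 27 tested, H2B-1 (96.4, 58.2 and 62.0 against 18.2, 18 and 38.5 FPKM, -1.55 ± 0.52, adjusted p = 0.0254, and 0.105, 0.0988 and 0.0976 without replicate 1 at 0 h, replicate 13 or replicate 14) and krp4 (-1.18, called in all 11 alternative settings), an inhibitor of cyclin-dependent kinases. All 7 tested senescence genes had a positive log2 fold change, with a median of 1.35, and 1 was called. It was NAM1, a NAC factor, which rose from 74.9, 105 and 74.8 to 317, 230 and 141 FPKM (1.36 ± 0.32, adjusted p = 0.00229). SGR1, which starts chlorophyll breakdown, had a log2 fold change of 2.12 and did not pass the test.

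**Figure D2:**
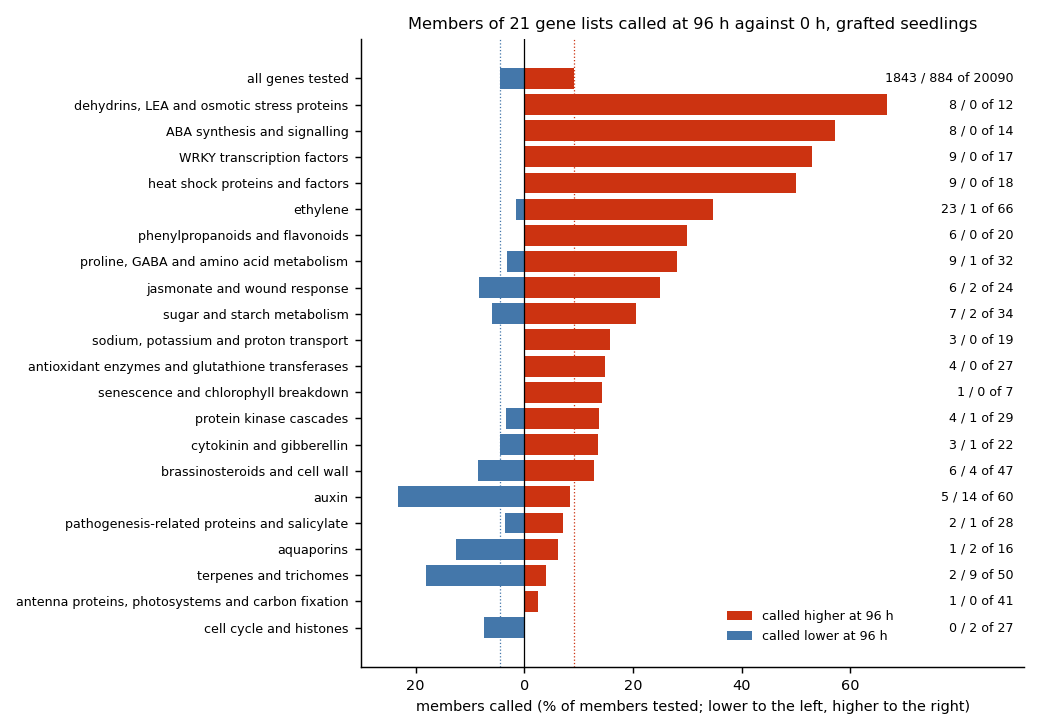
Percentage of the tested members of 21 gene lists called higher (red, to the right) and lower (blue, to the left) at 96 h against 0 h in GSs, with the counts higher / lower of tested at the right edge. Dotted lines mark the shares among all genes tested, 9.17% higher and 4.40% lower, and the auxin list has the largest share of falls.

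Among the genes that fell were those of the synthesis of steroidal glycoalkaloids, the bitter defense compounds of tomato leaves such as tomatine, which are made from cholesterol by GAME enzymes. The terpene list, which holds most of these genes, had 9 downregulated and 2 upregulated members of 50 tested, and no upregulated member without replicate 14 at 96 h. Gathered after the values were seen, 9 tested genes of the pathway included 7 downregulated and no upregulated members, with a median of -2.74, and the 96 h libraries lay below the 0 h libraries in all 9. The same held for 4028 of the 20090 genes tested. Because the 9 were gathered after their falls were seen, their count is no separate evidence. The gene listed as gad2, a dioxygenase also named GAME11, was at 4586, 626 and 1017 FPKM at 0 h and at 14.7, 35.9 and 111 FPKM at 96 h (-5.15 ± 1.2, adjusted p = 0.00213). GAME6, a cytochrome P450 that oxidizes cholesterol, went from 387, 60.7 and 98.5 to 5.07, 10.4 and 28.4 FPKM (-3.40 ± 1.06, adjusted p = 0.017), and GABA-TP2, the aminotransferase GAME12, from 804, 123 and 180 to 28.4, 29.1 and 66.7 FPKM (-2.74 ± 0.78, adjusted p = 0.00986). In each of these genes replicate 1 was the highest of the 0 h libraries and replicate 15 the highest of the 96 h libraries. The glycosyltransferase genes GAME1, GAME17 and GAME18 and the P450 gene GAME4 fell by 2.31, 2.87, 2.81 and 2.17. GAME7 (-0.92) and JRE4, the ERF factor that controls the pathway (113, 18 and 47.5 against 3.90, 7.48 and 17.7 FPKM, -2.36 ± 1.14, adjusted p = 0.122), were not called.

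Genes of sterol synthesis (the sterol branch), also gathered afterwards, had 5 downregulated and no upregulated members of 10 tested. C5-SD, a sterol desaturase, went from 1196, 143 and 258 to 11.1, 29.1 and 79.7 FPKM (-3.53 ± 1.02, adjusted p = 0.0104), SMO3, a sterol methyl oxidase, from 360, 71.5 and 96.9 to 2.84, 12.0 and 62.0 FPKM (-3.22 ± 1.15, adjusted p = 0.0364), and HYD1, a sterol isomerase, from 925, 161 and 351 to 41.1, 45.2 and 55.6 FPKM (-2.97 ± 0.58, adjusted p = 0.000456). HYD2 and DWF5-2 fell by 2.36 and 2.23. The members not called were SMO4 (-1.57), SSR2 (-0.67), SMO1 (-0.10), LOC543937 (0.44) and SSR1 (0.60). For SSR1 every 96 h library lay above every 0 h library. The call of SMO3 held in 4 of 11 alternative settings. Many calls in both groups rested on replicate 1 at 0 h. Without it, the terpene list had 1 downregulated member, 1 of the 7 glycoalkaloid genes (gad2) and 2 of the 5 sterol genes were called, GAME6 was at -2.63 (adjusted p = 0.107), GABA-TP2 at -1.93 (0.0928) and C5-SD at -2.65 (0.0838), while the sign stayed negative in all 12. Without replicate 13 at 96 h, 2 of the 5 sterol genes were called, and GAME1, GAME4, GAME6, GAME17 and GAME18 lost their calls. Over the 9 pathway genes, the median log2(FPKM + 1) was 7.18, 5.23 and 5.62 at 0 h and 2.85, 3.51 and 4.60 at 96 h.

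**Figure D3:**
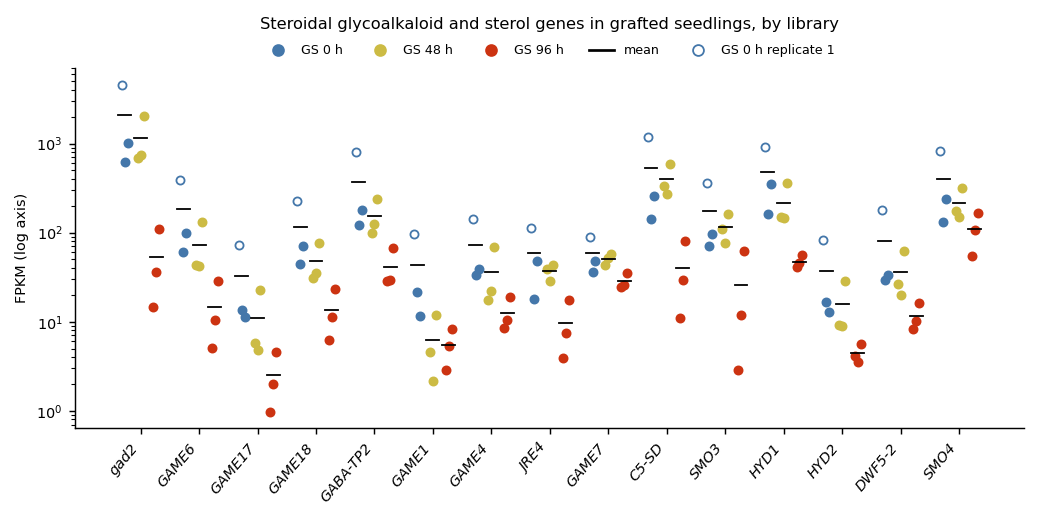
FPKM (log axis) of 9 genes of steroidal glycoalkaloid synthesis (gad2 to GAME7) and 6 of the sterol branch in each library of GSs at 0 h (blue, replicate 1 open), 48 h (yellow) and 96 h (red), with group means as black lines. Of the 10 tested sterol genes, SSR1, SSR2, LOC543937 and SMO1, none of them called, are not shown. Replicate 1 is the highest 0 h library in all 15 genes, and the 96 h libraries of gad2 lie between 14.7 and 111 FPKM, below every 0 h and 48 h library.

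Other genes with large changes belong to no list. SRG2 rose from 16.9, 2.51 and 8.05 to 319, 360 and 625 FPKM (5.65 ± 0.94, adjusted p = 8.12e-05). The gene listed as yfe37 fell from 1352, 277 and 142 to 7.52, 14.7 and 11.6 FPKM (-4.99 ± 1.17, adjusted p = 0.00226) and MKB1 from 342, 43.0 and 78.3 to 2.86, 8 and 14.2 FPKM (-3.71 ± 0.99, adjusted p = 0.00608, and 0.0544 without replicate 1 at 0 h). GLB1, a phytoglobin that scavenges nitric oxide, went from 161, 63.8 and 94.6 to 2.29, 7.55 and 52.8 FPKM (-3.12 ± 0.75, adjusted p = 0.0026, and 0.0588 in a fit of only the libraries compared), with replicate 15 apart from the other 96 h libraries. Among genes without a name, LOC100750252 (8.01) and LOC543942 (7.58) had the largest rises and LOC101244831 (-4.43) and LOC101247557 (-4.40) the largest falls. LOC543942 was at 0.819, 1.15 and 0.134 FPKM at 0 h and at 424, 349 and 209 FPKM at 96 h (SE 0.84, adjusted p = 5.41e-07).

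The GSs had also been sampled at 48 h, and 96 h was set directly against it. Of the 20090 genes, 1455 differed (7.24%), with 945 higher (4.70%) and 510 lower (2.54%) at 96 h. At 48 h against 0 h 2333 genes were DEGs (11.6%), 1430 higher (7.12%) and 903 lower (4.49%), a comparison that shares its 0 h libraries with the one at 96 h. TAS14 was already at 660, 2303 and 360 FPKM at 48 h and did not differ between the times (0.65 ± 1.11, adjusted p = 0.725). GolS2 went on rising, from 162, 102 and 111 FPKM at 48 h (1.93 ± 0.60, adjusted p = 0.0242). Among named genes the largest gains after 48 h were those of ARGOS, HT2, EREB, ETR4 and ACO1. ARGOS, an organ growth regulator, was at 21.2, 10.2 and 22.9 FPKM at 0 h, at 0.0858, 0.0947 and 0 FPKM at 48 h and at 18.4, 44.9 and 41.8 FPKM at 96 h (96 h against 48 h 4.99 ± 0.44, adjusted p = 5.83e-08). The ethylene receptor ETR4 followed the same course, at 15.2, 20.6 and 13.2, then 1.71, 2.87 and 1.88, then 32.9, 29.9 and 25.5 FPKM (3.28 ± 0.32, adjusted p = 2.36e-07). Both were below their 0 h levels at 48 h (called) and not called at 96 h against 0 h. The ethylene response factor EREB (1.25, 4.87 and 2.13 FPKM at 48 h) rose by 3.33 from 48 to 96 h, and its call against 0 h (1.60 ± 0.56, adjusted p = 0.0323) was lost without replicate 1 or 3 at 0 h and without any of the 96 h libraries.

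ACO1 rose from 53.5, 158 and 102 FPKM at 48 h by 3.26 ± 0.87 (adjusted p = 0.00886, and 0.051 without replicate 10 at 48 h) and HT2 from 1.86, 16.1 and 3.44 FPKM by 3.33 ± 0.75 (adjusted p = 0.00265). XTH1 and XTH9 were also late genes, at 10.7, 13.8 and 12.0 FPKM and at 2.63, 1.85 and 6.23 FPKM at 48 h, with log2 fold changes from 48 to 96 h of 2.96 ± 0.47 and 3.02 ± 0.47. The largest losses after 48 h among named genes were those of mcpi, gad2, C5-SD, MKB1 and NAOD, and gad2 was the only called member of the 9 glycoalkaloid genes. Levels of mcpi, a metallocarboxypeptidase inhibitor of wound defense, were 1204, 171 and 115 FPKM at 0 h, 196, 2082 and 1244 FPKM at 48 h and 6.16, 9.63 and 133 FPKM at 96 h, with a log2 fold change of -5.20 ± 1.47 from 48 h (adjusted p = 0.013) and no call against 0 h (-3.74, adjusted p = 0.057). At 48 h gad2 still stood at 691, 735 and 2032 FPKM and C5-SD at 335, 274 and 591 FPKM, with log2 fold changes from there of -4.65 ± 1.20 (adjusted p = 0.00709) and -3.62 ± 1.02 (adjusted p = 0.0124). MKB1 (-3.10) and NAOD (-2.63) also fell. Leaving out single libraries ended the call of mcpi and MKB1 in 4 of 6 cases each and that of C5-SD and NAOD in 2 each.

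**Figure D4:**
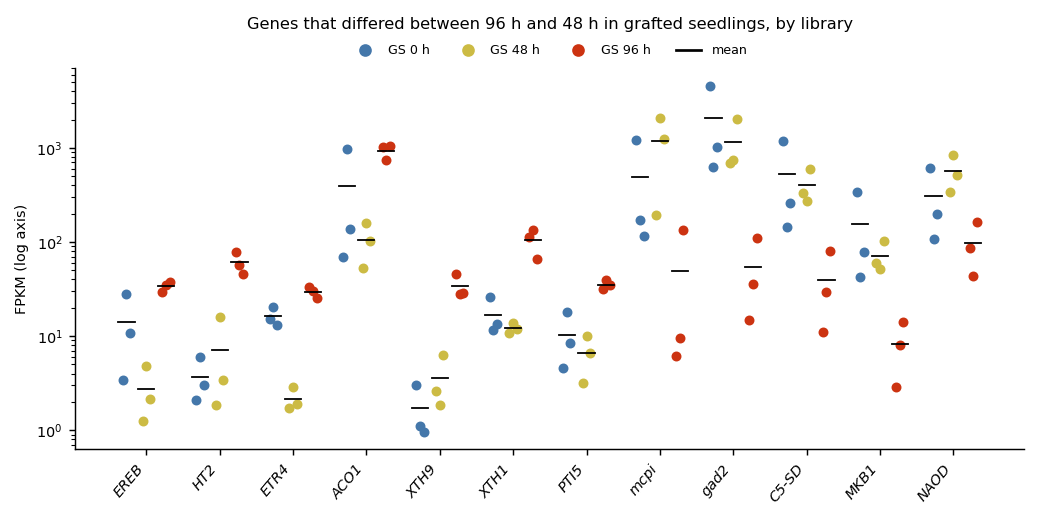
FPKM (log axis) of 12 genes in each library of GSs at 0 h (blue), 48 h (yellow) and 96 h (red), with group means as black lines. From EREB to PTI5 the 96 h libraries lie above every 48 h library, and from mcpi to NAOD they lie below every 48 h library. ARGOS is left out because a value of 0 has no place on a log axis.

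The same interval in NGSs gave 3761 DEGs (18.7%), with 1859 upregulated (9.25%) and 1902 downregulated (9.47%), against 1843 and 884 in the GSs. In the same direction, 1724 genes were called in both, which is 63.2% of the DEGs of the GSs and 45.8% of those of the NGSs. The difference between the responses was tested itself, and 51 genes (0.254%) were called, 45 with a more positive (0.224%) and 6 with a more negative (0.0299%) change in the GSs, or 24 and 8 with library totals as the scale. Of the 45, 34 were downregulated in the NGSs and 10 were upregulated in the GSs. No member of 20 of the 21 lists was among the 51. A missing call does not show that a gene responded alike in both. TAS14 rose by 8.60 in the GSs and 4.83 in the NGSs (difference 3.76, adjusted p = 0.271). In the NGSs it went from 5.01, 191 and 17.6 to 1789, 356 and 779 FPKM. Those 0 h levels lay above all 0 h levels of the GSs, while the 96 h levels overlapped. GolS2 rose by 7.14 in the GSs and 3.83 in the NGSs, from 6.50, 14.5 and 11 to 150, 177 and 147 FPKM in the NGSs (difference 3.31 ± 0.85, adjusted p = 0.0732). XTH9, at 9.19, 24.1 and 12.7 FPKM at 0 h and 20, 32.9 and 31.1 FPKM at 96 h in the NGSs, differed by 2.84 ± 0.66 (adjusted p = 0.0588). The glycoalkaloid genes had 7 downregulated members in the GSs (1 without replicate 1 at 0 h) and 0 in the NGSs. In the NGSs the median was -1.24 and every member of that group kept a negative sign, and none was called for a difference. The group was gathered after its falls in the GSs were seen, so these counts do not show a difference between GSs and NGSs.

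PEPC4, a phosphoenolpyruvate carboxylase gene, was the named gene with the firmest difference. It went from 4.47, 2.82 and 3.1 to 8.33, 7.43 and 11.8 FPKM in the GSs (1.18 ± 0.29, adjusted p = 0.00312) and from 17.0, 26.6 and 20.5 to 14, 8.55 and 5.36 FPKM in the NGSs (-1.19 ± 0.29, adjusted p = 0.00216), a difference of 2.37 ± 0.41 (adjusted p = 0.00485). At 0 h the levels in the NGSs lay above all those of the GSs, and at 96 h they overlapped. The same held for TPS12, a terpene synthase gene, at 1.86, 2.5 and 1.98 against 1.69, 1.10 and 3.25 FPKM in the GSs and 15.8, 16.2 and 19.9 against 0.874, 4.96 and 1.5 FPKM in the NGSs (difference 2.48 ± 0.55, adjusted p = 0.0421). For the P450 gene CYP77A19 the levels were 42.2, 26.5 and 66.6 against 89.1, 67.6 and 67.0 FPKM in the GSs and 88.1, 191 and 196 against 39.4, 72.8 and 52.3 FPKM in the NGSs (difference 2.27 ± 0.48, adjusted p = 0.0309). Of 18 alternative settings the call of PEPC4 held in 16, that of CYP77A19 in 4 and that of TPS12 in 3.

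**Figure D5:**
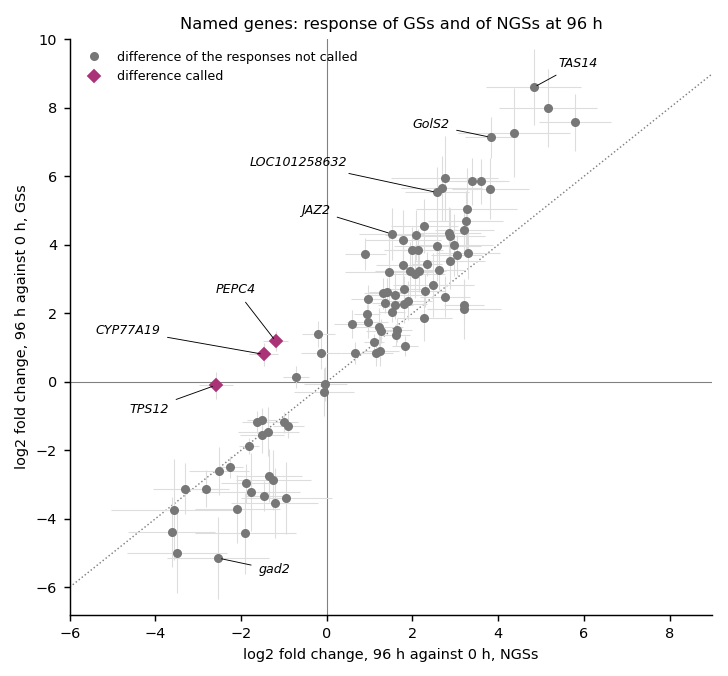
Log2 fold change from 0 h to 96 h of the named genes in NGSs (x axis) and in GSs (y axis), with standard errors as light lines and equal responses on the dotted line. Diamonds are the 3 named genes called for a difference of the responses (PEPC4, TPS12 and CYP77A19). TAS14 stands at 4.83 in the NGSs and 8.60 in the GSs, a difference that was not called.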

How the data were processed

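Leaf RNA was sequenced on an Illumina instrument after library preparation with the NEBNext Ultra kit, and the authors filtered the reads, mapped them to tomato SL 2.0 with HISAT and called DEGs with DESeq. The submitters' processing notes name HISAT2 2.0.5 and featureCounts 1.5.0-p3, and strandedness and annotation release are not given in the sources used here. The deposited values of 32246 genes were read as FPKM made by the authors, whose library denominators differed from the recovered read totals, and used as deposited. Whole reads were recovered from them for 100% of values (tolerance 0.0002 reads).

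The 20090 genes that reached 1 FPKM in 3 or more of the 36 libraries were fitted with limma 3.58.1 in R 4.3.3 (lmFit, eBayes with a trend) on log2(FPKM + 1) to 12 group means, with Benjamini-Hochberg adjustment over all genes. The script was tested on simulated data. The libraries are biological replicates per the paper's methods, and whether plants were pooled is not given, so p-values measure the spread between these samples. The members, the 21 gene lists and the tests were chosen with earlier results of these data known.

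Lists were matched by symbols and synonyms of the RefSeq table (SLM_r2.1, 28942 identifiers matched, 2941 with a symbol, no coordinates used), and 36 false matches, of which 10 of 34 tested were called, were removed after values were known. Lists are given by counts and medians without a set test. Named genes are 20 from the paper, the 10 largest rises and falls with groups apart, up to 3 per list, 5 per direction for the difference between GSs and NGSs and for 96 h against 48 h, and 2 unnamed per direction. Steroidal glycoalkaloid, sterol, XTH and organelle groups and other list members were added after their values were seen. The alternatives were another pseudocount, no filter, only the libraries compared, library totals as the scale, voom on recovered reads, the FDR alone, each library left out and a replicate block. In the WRKY list, a search by protein motif was not run. Figures were drawn with Python 3.11.15 and matplotlib 3.10.9.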

Additional observations from a re-analysis of the deposited data

Results flagged for a closer look

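The 96 h response differed between GSs and NGSs by the test of the difference itself in 51 genes of 20090. With an unadjusted p under 0.05 there were 2812. Of the 51, 3 have a name. On the log2 scale the change was more positive in the GSs by 2.37 for PEPC4, by 2.48 for TPS12 and by 2.27 for CYP77A19. All 3 were higher in the NGSs than in the GSs at 0 h, and all 3 were downregulated in the NGSs, while only PEPC4 was upregulated in the GSs. Without single libraries the count ran from 21 to 195.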

How the results depend on the processing

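No paired analysis was possible because the libraries of GSs at 96 h and 0 h, or 96 h and 48 h, share no replicate numbers. GSs and NGSs at the same time do, and with the number as a replicate block 55 genes differed in response in place of 51. Libraries with the same number deviated together with a correlation of -0.01 to 0.21 at 0 h and -0.39 to 0.43 at 96 h, so the numbers do not pair them, and replicate 15 of the GSs deviated most like replicate 14 of the NGSs (0.64).

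The 2727 DEGs of GSs at 96 h numbered 2279 to 3062 when single libraries were left out (fewest without replicate 14 and most without replicate 15 at 96 h), the 1455 against 48 h 1031 to 1704, and the 3761 of the NGSs 3007 to 4271. At the FDR alone they were 5754, 4136 and 8091. The count of differing responses was the least stable, at 21 to 195 without single libraries, 11 with a pseudocount of 0.1, 105 with only the libraries compared, 32 with library totals as the scale and 4 with voom. For GSs at 96 h, voom gave 3165 DEGs and library totals 2622.

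Of 109 named genes, the direction turned in 3, none of them called. Without replicate 1 at 0 h LOC101253380 was at 0.28 and CAB6A at 0.30, without replicate 13 at 96 h they were at 0.19 and 0.24, and without replicate 14 CAB6A was at 0.01 and TPS12 at 0.12. Over the 6 libraries left out, they ranged from -0.91 to 0.28, from -0.50 to 0.30 and, for TPS12, from -0.38 to 0.12. Leaving out replicate 1 at 0 h ended 20 calls, the most of any setting. The cause of these changes was not tested.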
